A study of Mus musculus with 10 samples.

Results

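The Notch receptors *Notch1*, *Notch2*, *Notch3* and *Notch4*, their ligands *Jag1*, *Jag2*, *Dll1* and *Dll4*, the nuclear effector *Rbpj* and the target gene *Hes1* were taken by symbol from the table of right atrial RNA-seq counts. All 10 of these genes were found among the 23337 genes listed, and all 10 had enough reads to be tested.

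The libraries came from the right atria of 10 mice of mixed strain, given as 8 to 10 weeks old in the sample labels and 6 to 8 weeks in the extraction protocol. The labels put 4 mice in the control group (M1, M2, F1 and F2) and 6 in the Tbx5 mutant group (F1, F2, F3, M1, M2 and M3). In the model, tamoxifen activates a Cre recombinase expressed from the ubiquitous R26 promoter. The recombinase excises exon 3 of *Tbx5*, a T-box transcription factor of the atria. The labels give the genotypes only as Control and R26Cre driven TBX5 removal. For its left atria, the paper names mutants with floxed *Tbx5* and R26 CreERt2, and controls with R26 CreERt2. Mice received 0.167 mg of tamoxifen daily over 3 days, and tissue was taken 1 week later, so an effect seen here may arise in any cell type of the atrium.

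The total count per library was 5703775 to 7095141. The rRNA gene *Rn45s* took 38.9% of the counts of Tbx5 mutant M3 and 0.268% to 1.49% of those of the other libraries, and each call from the comparison of the groups was repeated without that library. *Tbx5* itself went against the labels, with 1195 to 1505 reads in the control libraries and 1010 to 3524 in those labelled Tbx5 mutant, and in CPM (184.2 to 224.0 against 275.0 to 474.7) every library labelled mutant lay above every control. A count over the whole gene does not show whether exon 3 was lost, so the groups are named by their labels throughout. *Ryr2* and *Sln*, calcium-handling genes of atrial muscle known to depend on TBX5, were lower in the group labelled Tbx5 mutant, with log2 fold changes of -1.65 and -0.98 (edgeR adjusted p = 2.99e-05 and 0.000264). The 2 controls labelled male had 7850 and 10149 reads of *Xist* and 0 of *Ddx3y*, and the 2 labelled female had 5 and 14 reads of *Xist* and 1124 and 1319 of *Ddx3y*, the reverse of their labels, while the 6 libraries labelled mutant matched theirs. By these genes, a comparison within 1 labelled sex sets controls of one sex beside mutants of the other.

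Notch receptors are membrane proteins that are cleaved when a Jagged or Delta-like ligand on a neighbouring cell binds them. The freed intracellular domain enters the nucleus, joins RBPJ and Mastermind-like proteins on DNA and turns on genes such as those of the Hes and Hey families. In the heart the pathway is known for its part in endothelium, valve formation, arterial smooth muscle and the boundary between chamber and atrioventricular canal muscle.

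Of the 10 genes, 1 ligand (*Jag1*) was higher and 2 ligands (*Jag2* and *Dll1*) lower in the group labelled Tbx5 mutant, and the 4 receptors, *Dll4*, *Rbpj* and *Hes1* did not pass the test. Genes were tested by quasi-likelihood in edgeR, p-values were adjusted by Benjamini-Hochberg over all 13084 genes tested, and a gene passed when its adjusted p was under 0.05. Over all genes tested, 31.3% passed, 16.3% as higher and 15.0% as lower, so 3 of 10 is a share near that background. The median log2 fold change of the 10 genes was -0.13, and that of all genes tested was -0.005.

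**Figure D1:**
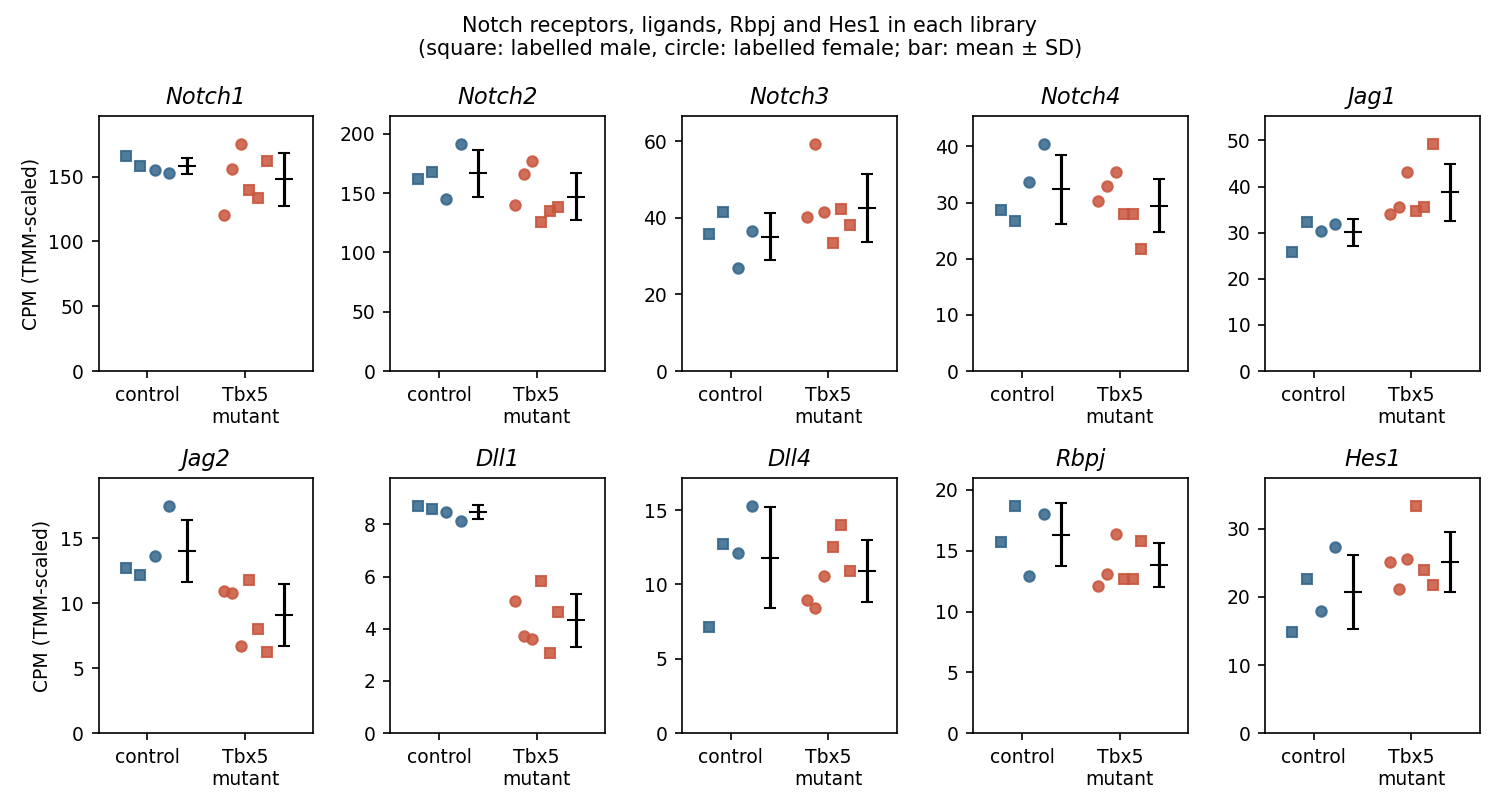
Each panel plots the TMM-scaled CPM (reads scaled to a common library size) of 1 gene in the 4 libraries labelled control (blue) and the 6 labelled Tbx5 mutant (red), with squares for labelled males, circles for labelled females and the mean ± SD beside each group. The groups are separate for Jag1, Jag2 and Dll1 and overlap for the other 7 genes.

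*Dll1*, a Delta-like ligand, had the largest fold difference of the 10. Its level was 8.72, 8.60, 8.47 and 8.12 CPM in control M1, M2, F1 and F2, and ran from 3.06 to 5.83 CPM with a median of 4.18 in the 6 libraries labelled Tbx5 mutant. Every library labelled mutant was below every control. The mean fell from 8.48 ± 0.26 CPM (SD, n = 4) to 4.32 ± 1.03 CPM (SD, n = 6), a log2 fold change of -0.99 ± 0.18 (SE; edgeR adjusted p = 0.00107). An exact two-sided permutation test of the log2 level gave p = 0.00476, the smallest that the 210 splits of 4 against 6 allow. The gene is at a low level, with 17 to 61 reads per library. The call held with each library left out, but within the mice labelled male alone the log2 fold change was -0.95 with an adjusted p of 0.0721, against -1.01 and 0.0118 within those labelled female.

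*Jag2*, a Jagged ligand, was also lower. Its level was 12.7, 12.2, 13.6 and 17.5 CPM in the 4 controls in the same order, and 6.26 to 11.8 CPM with a median of 9.40 in the libraries labelled mutant. The highest mutant value was just below the lowest control value, so that the groups did not overlap. The mean fell from 14.0 ± 2.37 CPM (SD, n = 4) to 9.08 ± 2.39 CPM (SD, n = 6), a log2 fold change of -0.62 ± 0.18 (SE; edgeR adjusted p = 0.0211; exact permutation p = 0.0238). This call rested on control F2, the library with the highest value, without which the log2 fold change was -0.48 and the adjusted p was 0.0835. Within the mice labelled male it was -0.50 with an adjusted p of 0.239, and within those labelled female -0.72 with an adjusted p of 0.0479.

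*Jag1*, the other Jagged ligand and the most abundant of the ligands per kb, was higher. Its level was 25.9, 32.3, 30.3 and 31.9 CPM in the controls and 34.1 to 49.3 CPM with a median of 35.6 in the libraries labelled mutant. All 6 lay above all 4 controls, the lowest of them by less than the SD of either group. The mean rose from 30.1 ± 2.95 CPM (SD, n = 4) to 38.7 ± 6.17 CPM (SD, n = 6), a log2 fold change of 0.36 ± 0.12 (SE; edgeR adjusted p = 0.0379; exact permutation p = 0.00952). This was the least firm of the 3 calls. The adjusted p was 0.106 without control M1, 0.0774 without control F1, 0.0635 without Tbx5 mutant F3 and 0.0641 without Tbx5 mutant M3, with log2 fold changes of 0.28 to 0.36. It was 0.166 within the mice labelled male and 0.193 within those labelled female. A fold over 1.5, which the study's methods ask for, was reached by *Jag2* and *Dll1* and not by *Jag1*, whose fold was 1.28. Over all genes, 15.7% passed with that fold and a control mean signal over 1.

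*Dll4*, a Delta-like ligand of arterial and sprouting endothelium, did not pass the test. It ranged from 7.14 to 15.3 CPM in the controls and from 8.40 to 14.0 CPM in the libraries labelled mutant, and the mutant range lay within the control range. The log2 fold change was -0.12 ± 0.20 (SE), with a 95% interval of -0.55 to 0.31 and an adjusted p of 0.678. It was -0.56 within the mice labelled female and 0.35 within those labelled male, sets that mix the sexes by *Xist* and *Ddx3y*, and neither passed.

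Groups did not overlap for 3 of the 10 genes, against 22.7% of all genes tested. The groups' CPM overlapped for each of the 7 genes that did not pass.

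Sequence from the 250 bases before the start sites of *Dll1* and *Jag1*, ligands whose groups were separate, and of *Rbpj*, which holds the only motif matches among the 9 genes with an entry (all but *Hes1*), is given here from RefSeq (GRCm38.p6), 5′ to 3′ on the strand of the gene. Only the stretch outside annotated exons is shown, so those of *Jag1* and *Rbpj* stop short of the start, and a TGGGAA match nearer the start of *Rbpj*, on the other strand, is not shown. Capitals mark AGGTGT, the core that T-box proteins such as TBX5 bind, and TGGGAA, the core that RBPJ binds.
Dll1: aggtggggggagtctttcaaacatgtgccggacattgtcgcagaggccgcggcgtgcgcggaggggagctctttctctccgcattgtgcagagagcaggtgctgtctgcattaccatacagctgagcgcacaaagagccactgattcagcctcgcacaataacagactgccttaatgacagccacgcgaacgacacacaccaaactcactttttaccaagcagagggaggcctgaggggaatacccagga
Jag1: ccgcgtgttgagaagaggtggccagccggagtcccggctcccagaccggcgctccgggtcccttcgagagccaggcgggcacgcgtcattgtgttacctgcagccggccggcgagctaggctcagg
Rbpj: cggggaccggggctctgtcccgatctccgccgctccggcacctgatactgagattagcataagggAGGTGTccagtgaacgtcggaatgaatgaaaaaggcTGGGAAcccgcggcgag
The *Dll1* stretch is chr17:15376933-15377182 on the reverse strand, that of *Jag1* chr2:137116645-137116770 on the reverse strand and that of *Rbpj* chr5:53590096-53590213 on the forward strand. Windows of 300 bases, from 250 before to 50 after a start, were searched on both strands for 9 of the 10 genes, 11 windows in all. AGGTGT was in 1 window and TGGGAA in 2, all of them those of *Rbpj*, whose 2 windows overlap. Among all 32851 RefSeq windows, 13.7% held AGGTGT and 25.6% held TGGGAA. The longer forms AGGTGTGA and GTGGGAA were in none of the 11 windows and in 1.28% and 6.38% of all windows. The window of *Jag2* held 63 CG dinucleotides, those of *Dll1* 15 and 24, that of *Jag1* 22 and that of *Notch4* 5, where the median of all windows was 7.

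*Dll1* is at chr17:15367354-15376872, *Jag1* at chr2:137081456-137116644 and *Jag2* at chr12:112907819-112929776, all on the reverse strand of GRCm38 in GENCODE M21. The exons of *Dll1* share 867 bases with A930024N18Rik on the opposite strand, a gene that the table does not list. Whether the counting used strand is not stated for these libraries, so reads of the pair cannot be told apart there. No exon base of *Jag1* or *Jag2* is shared with another gene.

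The make-up of the ligand transcripts was then described within each library, which does not depend on how libraries are scaled to each other. This description was chosen after the values were seen and carries no test. *Jag1* had 2.03, 2.64, 2.22 and 1.83 reads per read of *Jag2* in the 4 controls, and 3.13, 3.30, 6.46, 2.93, 4.44 and 7.87 in Tbx5 mutant F1, F2, F3, M1, M2 and M3. The lowest ratio in a library labelled mutant, in M1, was above the highest control ratio, in M2. The highest ratio was that of Tbx5 mutant M3, with 23 reads of *Jag2* and 38.9% of its counts from *Rn45s*. The same library gave the highest share of *Jag1* and the lowest of *Jag2* below. Shares within a library depend on each other, so a lower share of 1 ligand raises the others. Per kb of the longest transcript, *Jag1* made up 36.8% to 41.2% of the sum of the 4 ligands in the controls and 45.9% to 61.8% in the libraries labelled mutant. The share of *Dll1* was 14.7% to 21.3% in the controls and 6.84% to 12.1% in the others. *Jag2* overlapped slightly on this scale, at 17.2% to 22.1% against 8.63% to 18.0%, and *Dll4* overlapped, at 16.7% to 26.4% against 19.1% to 29.9%. The ligand transcripts thus held relatively more *Jag1* and less *Dll1* in the mice labelled Tbx5 mutant.

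**Figure D2:**
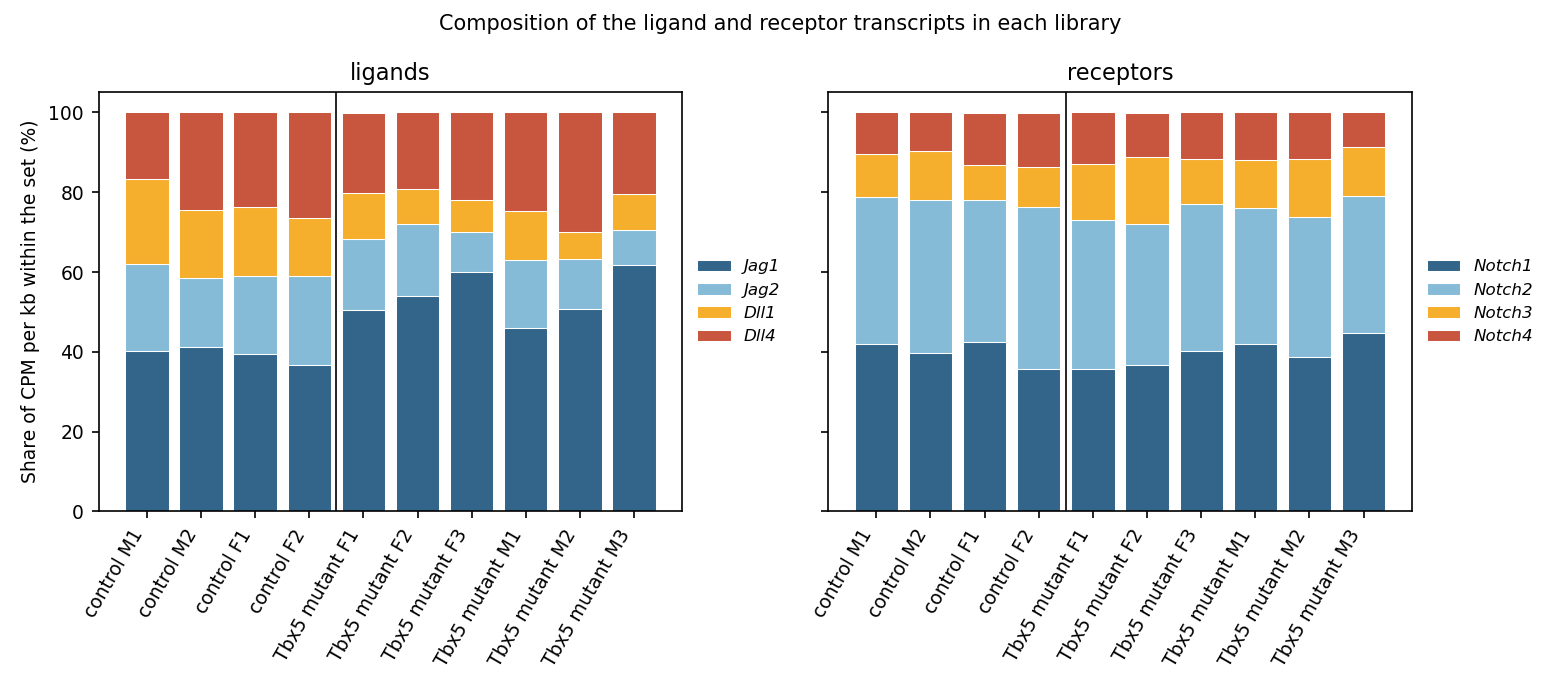
Stacked bars give, for each library, the share in percent of each ligand (left) and each receptor (right) in the sum of its set, from CPM per kb of the longest transcript; the vertical line parts the 4 libraries labelled control from the 6 labelled Tbx5 mutant. Jag1 takes 36.8% to 41.2% of the ligands in the controls and 45.9% to 61.8% in the others, while the receptor shares overlap between the groups.

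Of the receptors, *Notch1* and *Notch2* are the broadly expressed ones, *Notch3* is the receptor of arterial smooth muscle and pericytes, and *Notch4* is largely endothelial. *Notch1* had 166.3, 158.3, 155.2 and 152.8 CPM in the controls and 120.5 to 175.5 CPM with a median of 147.8 in the libraries labelled mutant. The mutant range reached both above and below that of the controls. Its log2 fold change was -0.10 ± 0.10 (SE; 95% interval -0.32 to 0.12; adjusted p = 0.498 by edgeR). *Notch2* had 161.5, 168.1, 144.7 and 191.7 CPM in the controls and 126.0 to 176.9 CPM with a median of 139.2 in the others, of which 4 lay below all controls. The log2 fold change of *Notch2* was -0.18 ± 0.11 (SE; 95% interval -0.42 to 0.06; edgeR adjusted p = 0.239). The intervals of both take in no fold change of the size seen for *Dll1*.

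*Notch3* had 35.7, 41.5, 26.8 and 36.5 CPM in the controls and 33.4 to 59.4 CPM with a median of 40.9 in the libraries labelled mutant, of which 3 lay above all controls. The highest value was that of Tbx5 mutant F2. Its log2 fold change was 0.28 ± 0.15 (SE; 95% interval -0.05 to 0.61; edgeR adjusted p = 0.184). *Notch4* had 28.6, 26.8, 33.7 and 40.5 CPM in the controls and 21.8 to 35.4 CPM with a median of 29.1 in the others, and the groups overlapped. Its log2 fold change was -0.13 ± 0.14 (SE; 95% interval -0.43 to 0.17; edgeR adjusted p = 0.505).

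The direction of 3 of the receptor values changed when a trend with transcript length was removed. Over all genes tested, the log2 fold change correlated with the length of the longest transcript (Spearman's rho -0.31, across genes, which are not independent), and the receptors have long transcripts of 9488, 10500, 8016 and 6591 bases for *Notch1* to *Notch4*, where the median tested gene has 3484. With each library's length trend removed, *Notch3* passed as higher, with a log2 fold change of 0.51 and an adjusted p of 0.0297, and *Notch1*, *Notch2* and *Notch4* turned to 0.18, 0.12 and 0.03 without passing. The calls of the ligands held in that fit, at -0.99 for *Dll1*, -0.52 for *Jag2* and 0.49 for *Jag1*. In all, 28.0% of the genes passed there.

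**Figure D3:**
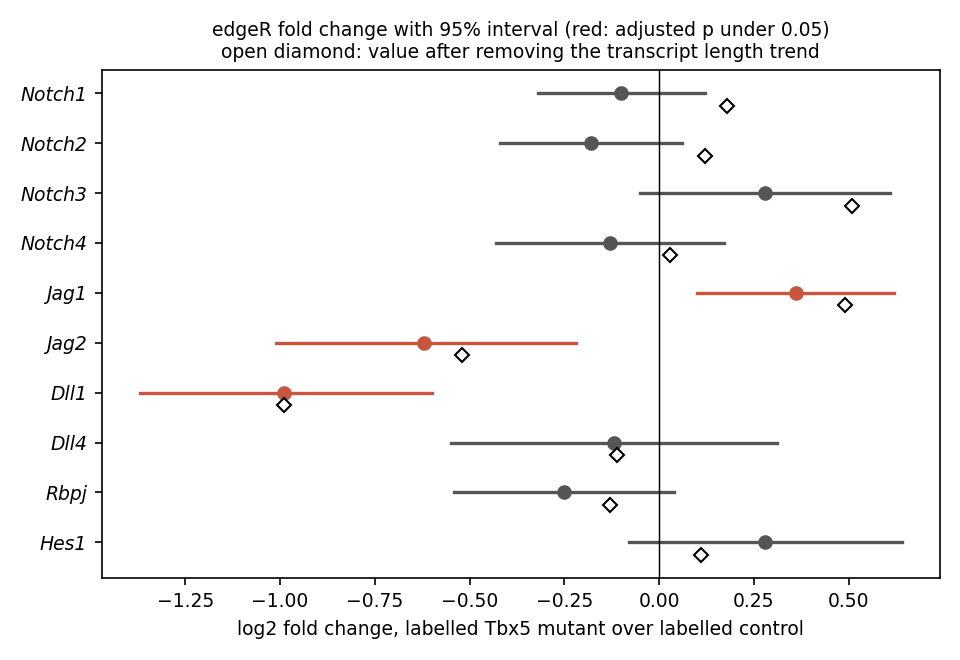
The plot gives the log2 fold change of each gene, labelled Tbx5 mutant over labelled control, as a point with its 95% interval (red where the adjusted p was under 0.05), and as an open diamond after the transcript length trend was removed. Only the intervals of Jag1, Jag2 and Dll1 leave out 0, and removing the trend moves Notch1, Notch2 and Notch4 across 0.

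*Rbpj*, the DNA-binding protein through which all 4 receptors act, had 15.7, 18.7, 12.9 and 18.0 CPM in the controls and 12.1 to 16.4 CPM with a median of 12.9 in the libraries labelled mutant. The groups overlapped, with 3 of the 6 below all controls. Its log2 fold change was -0.25 ± 0.14 (SE; 95% interval -0.54 to 0.04; edgeR adjusted p = 0.180). *Hes1*, a repressor that Notch induces in many tissues, had 14.9, 22.7, 18.0 and 27.3 CPM in the controls and 21.1 to 33.4 CPM with a median of 24.5 in the others. The highest value was that of Tbx5 mutant M1, the only one above all controls. For *Hes1* the log2 fold change was 0.28 ± 0.17 (SE; 95% interval -0.08 to 0.64; edgeR adjusted p = 0.227).

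Levels were set beside each other as CPM per kb of the longest transcript. In the controls, *Notch1* was at 16.7 ± 0.62, *Notch2* at 15.9 ± 1.85 and *Hes1* at 14.1 ± 3.71 CPM per kb (SD, n = 4), which did not differ beyond their spread. *Jag1* followed at 5.36 ± 0.525, *Notch4* at 4.91 ± 0.93 and *Notch3* at 4.39 ± 0.764, where neighbours again lay within the SD of at least 1 of them and *Jag1* and *Notch3* differed by more than either SD. The lowest were *Dll4* at 3.15 ± 0.91, *Rbpj* at 2.97 ± 0.48, *Jag2* at 2.74 ± 0.464 and *Dll1* at 2.37 ± 0.072, and neighbours in this order lay within the SD of at least 1 of them. In the libraries labelled Tbx5 mutant, *Hes1* was at 17.1 ± 3.02, *Notch1* at 15.6 ± 2.14 and *Notch2* at 14.0 ± 1.88 CPM per kb (SD, n = 6). *Jag1* at 6.90 ± 1.10 stood above *Notch3* at 5.30 ± 1.11 by more than the SD of either, as in the controls, and *Dll1* at 1.21 ± 0.288 stood below *Jag2* at 1.78 ± 0.468 likewise. The order depends on the length used: per kb of all annotated exons merged, the control means were 15.4 for *Notch2*, 11.1 for *Notch1* and 10.2 for *Hes1*, and *Rbpj* was the lowest at 1.28.

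A further 65 genes of the pathway were found in the table, and 55 of them had enough reads to be tested. Of these, 7 were higher and 7 lower, together 25.5%, against 31.3% of all genes tested, and the median log2 fold change was -0.07. The number lower was 1 without control M2 and 4 without Tbx5 mutant F3 or M2, and the number higher was 4 without control F1. The plot of pathway genes by role shows them group by group.

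**Figure D4:**
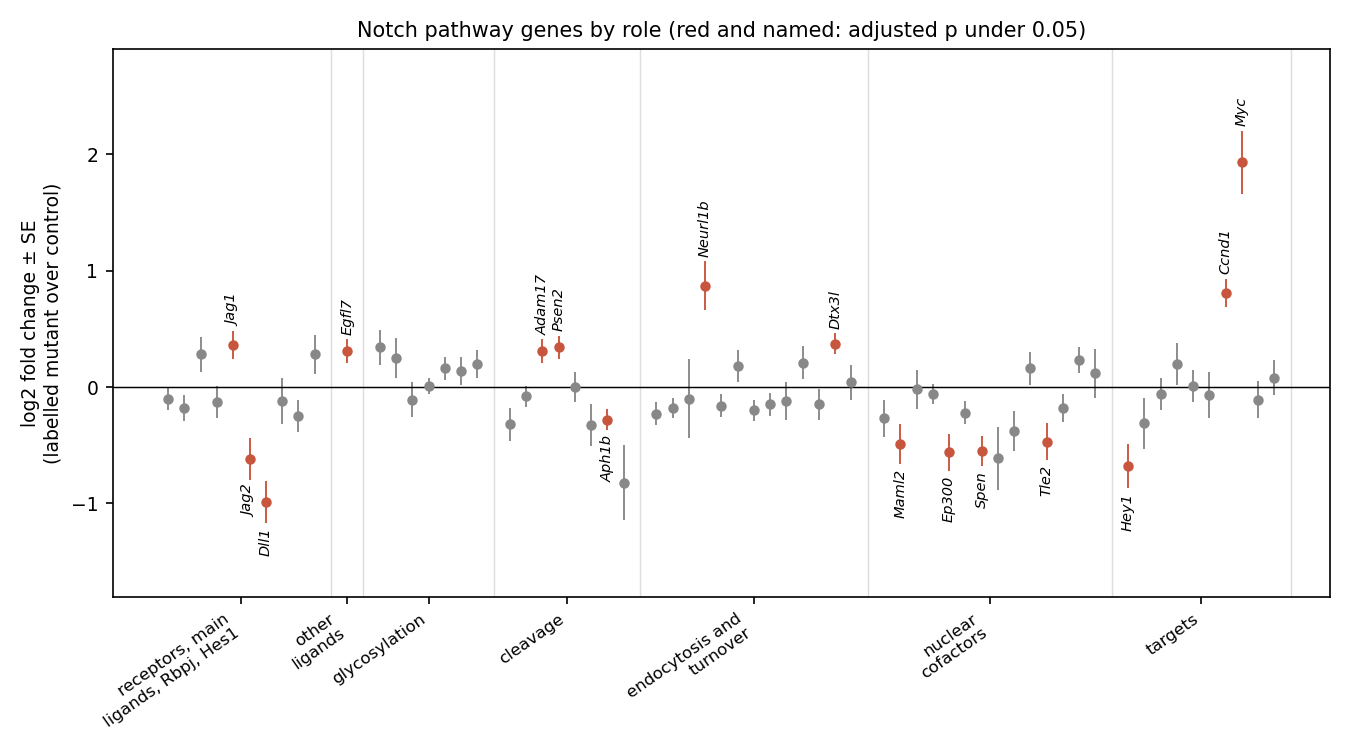
Points give the log2 fold change, labelled Tbx5 mutant over labelled control, with its SE for the tested genes described here, grouped by role from the receptors and ligands on the left to the target genes on the right; red points with a name have an adjusted p under 0.05. No glycosylation gene passed, the 4 nuclear cofactors named are below 0, and Myc has the largest value at 1.93.

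Among the 6 other ligands and secreted modulators, only *Egfl7*, a protein that endothelial cells secrete, had enough reads, and it was higher at 0.31 ± 0.10 (log2 fold change and SE; edgeR adjusted p = 0.0289). Its call was lost with control M1, F1 or F2 or Tbx5 mutant M1 left out. It was also lost with the length trend removed (edgeR adjusted p = 0.224) or the GC trend removed. The adjusted p values reached 0.430 over all alternatives. *Dll3*, *Dlk1*, *Dlk2*, *Dner* and *Cntn1* had 0 to 6 reads per library. The Notch pathway's glycosylation genes, which add sugars to the receptors and set which ligand they answer, gave 0 calls among 7 in edgeR, from -0.11 for *Rfng* to 0.34 for *Lfng* (adjusted p = 0.110). At an unadjusted p under 0.05 there was 1, and DESeq2 and limma each gave 0 calls. *Eogt* and *Xxylt1* are listed under older symbols.

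Of the 9 tested genes of receptor cleavage, 2 were higher and 1 lower, together 33.3%, against 31.3% of all genes tested. *Adam17*, a protease that sheds membrane proteins, was at 0.31 ± 0.10 (log2 fold change and SE; edgeR adjusted p = 0.0348), and *Psen2*, a catalytic subunit of gamma-secretase, at 0.34 ± 0.10 (adjusted p = 0.0196). *Aph1b*, another gamma-secretase subunit, fell from 23.4 to 24.8 CPM in the controls to 17.9 to 21.6 CPM in the libraries labelled mutant, without overlap, at -0.28 ± 0.09 (adjusted p = 0.0301). The calls of *Psen2* and *Aph1b* were lost with the length trend removed, at adjusted p values of 0.146 and 0.121, and those of all 3 genes were lost with some single libraries left out, for *Adam17* any of control M2, F1 and F2 and Tbx5 mutant F3, M1 and M2, for *Psen2* control F1, and for *Aph1b* any control or Tbx5 mutant F3 or M2. *Adam10*, the main sheddase of Notch, was at -0.08, and *Ncstn* was at 0.00.

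Of the 13 tested genes of ligand endocytosis and receptor turnover, 2 were higher and 0 lower, together 15.4%, against 31.3% of all genes tested. *Neurl1b*, a ubiquitin ligase that acts on ligands, rose from 6.80 ± 1.20 CPM (SD, n = 4) to 12.4 ± 3.41 CPM (SD, n = 6), a log2 fold change of 0.87 ± 0.21 (SE; edgeR adjusted p = 0.00692). *Dtx3l*, a Deltex-related ubiquitin ligase, was at 26.7 to 32.3 CPM in the controls and 34.9 to 40.8 CPM in the libraries labelled mutant, without overlap, a log2 fold change of 0.37 ± 0.09 (SE; edgeR adjusted p = 0.00748). The groups overlapped for *Neurl1b*, with a lowest mutant value of 7.94 CPM and a highest control value of 8.44 CPM. Both calls held with each library left out. That of *Neurl1b* was lost within the mice labelled female (edgeR adjusted p = 0.0712). The call of *Dtx3l* was lost within those labelled male (edgeR adjusted p = 0.223). *Mib1*, the ubiquitin ligase that most ligands depend on, was at -0.23 with an adjusted p of 0.111.

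Of the 15 tested nuclear cofactors, 5 were lower and 0 higher, together 33.3%, where 31.3% of all genes passed and 15.0% were lower. Without Tbx5 mutant M3, 3 were lower. Among them were *Ep300* at -0.56 ± 0.16, *Spen* at -0.55 ± 0.13, *Maml2* at -0.49 ± 0.17 and *Tle2* at -0.47 ± 0.16 (log2 fold change and SE), with edgeR adjusted p values of 0.0151, 0.00562, 0.0463 and 0.0422. *Ep300* and *Maml2* are coactivators, while *Spen* and *Tle2* are corepressors. None of the 5 passed with the length trend removed, where these 4 had adjusted p values of 0.261, 0.227, 0.157 and 0.0633 in the same order. The longest transcripts of the 4 have 4388 (*Tle2*) to 12299 bases (*Spen*). The call of *Ep300* was lost without control M2 or F2 (adjusted p = 0.0534 and 0.0518), that of *Maml2* without control M1 or M2 or any library labelled mutant but F2, and that of *Tle2* without control M1, M2 or F1 or Tbx5 mutant F3, M1, M2 or M3.

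Of the 10 tested target genes besides *Hes1*, 2 were higher and 1 lower, together 30%, against 31.3% of all genes tested. *Hey1*, a Notch target known for its place in atrial muscle and endothelium, had 33.4, 49.5, 35.1 and 29.0 CPM in the controls and 17.0 to 32.9 CPM with a median of 22.2 in the libraries labelled mutant. The groups overlapped only through control F2 and Tbx5 mutant M3. Its log2 fold change was -0.68 ± 0.19 (SE; edgeR adjusted p = 0.0149), and without control M2, its highest library, -0.50 with an adjusted p of 0.0661. *Hey2* was at -0.31 (adjusted p = 0.292), *Heyl* at -0.06 and *Nrarp*, a feedback inhibitor that Notch induces, at 0.20 (adjusted p = 0.423), while *Hes5* and *Hes7* had 0 to 3 reads per library.

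*Ccnd1* and *Myc*, growth genes that Notch is known to induce in some tissues and that many other pathways induce too, were higher. *Ccnd1* rose from 41.2 ± 3.34 CPM (SD, n = 4) to 72.2 ± 11.6 CPM (SD, n = 6), a log2 fold change of 0.81 ± 0.12 (SE; edgeR adjusted p = 0.000317). *Myc* rose from 1.45 ± 0.53 CPM (SD, n = 4) to 5.58 ± 1.31 CPM (SD, n = 6), a log2 fold change of 1.93 ± 0.27 (SE; edgeR adjusted p = 0.000175). *Myc* is at a low level, with 5 to 13 reads per control library and 20 to 54 in the others. For both *Ccnd1* and *Myc*, every library labelled mutant was above every control, and both calls held in each alternative in which they were tested. *Hey1* and these growth genes thus moved in opposite directions.

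Some markers of the cell types in the tissue differed between the groups as well. Over all genes tested, 31.3% passed, 16.3% as higher and 15.0% as lower. The counts of marker calls given here and below were equal without Tbx5 mutant M3. All 6 proliferation markers, among them *Mki67* and *Top2a*, were higher, with a summed level of 12.3 to 26.8 CPM in the controls and 74.1 to 246.2 CPM in the others, beside the values of *Myc* and *Ccnd1*. Of 9 mural markers 6 were higher and 0 lower (*Pdgfrb*, *Cspg4*, *Acta2*, *Tagln*, *Des* and *Mcam*). The sums over the 9 were 1263.7 to 1533.1 CPM in the controls and 2090.8 to 3057.9 CPM in the others. These values stand beside those of *Jag1* and of *Notch3*, which did not pass. *Des* made up most of both sums, with means of 957.2 and 1905.4 CPM. *Myh11* did not pass, at 0.23 (edgeR adjusted p = 0.552), and the pericyte markers *Rgs5* and *Kcnj8* were at -0.22 and -0.27. Of 14 endothelial markers 3 were higher (*Emcn*, *Vwf* and *Egfl7*, which is also in the pathway list) and 0 lower, with sums that overlapped at 3156.6 to 4584.0 and 4088.0 to 5274.2 CPM, and *Cdh5*, *Tie1* and *Kdr* were at 0.10, 0.02 and -0.24. In bulk tissue, fewer cells of a type and less RNA per cell cannot be told apart, and the part of these markers in the results was not tested.

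The defining markers of atrial muscle were abundant in every library, and the levels of several differed between the groups. The atrial genes *Myl7*, *Myl4*, *Sln*, *Nppa* and *Ryr2* were lower and *Tnnt2* and *Actn2* higher, with sums over the list of 70744.0 to 84113.7 CPM in the controls and 51484.6 to 66045.9 CPM in the others. *Myh6*, also in the list, did not pass, at 0.10 (edgeR adjusted p = 0.711), with means of 24101.8 and 25812.6 CPM. The means of *Nppa* were 26826.6 and 17114.1 CPM, and those of *Myl7* 6371.9 and 960.2 CPM. The ventricular gene *Irx4* had 0 to 1 read per library, while *Myl2* and *Myl3* were higher. The groups overlapped for *Myl2*, with a lowest mutant value of 6.51 CPM and a highest control value of 6.63 CPM. *Myh7*, also in that list, did not pass, at 0.92 (edgeR adjusted p = 0.208), and ran from 81.4 to 921.0 CPM in the libraries labelled mutant. Of 7 tested leukocyte markers 6 were higher (sums 404.5 to 631.7 and 678.8 to 974.9 CPM). Of 8 fibroblast markers 4 were higher (*Col1a1*, *Col1a2*, *Col3a1* and *Postn*) and *Pdgfra* was lower (sums 3872.4 to 5205.2 and 7072.8 to 10271.5 CPM). *Col3a1* alone had means of 1433.1 and 3459.5 CPM, while *Dcn* was at -0.01 (edgeR adjusted p = 0.952). Of 6 epicardial markers 0 passed in edgeR, with 1 at an unadjusted p under 0.05 and 0 by DESeq2 or limma (sums 377.8 to 389.1 and 228.0 to 452.7 CPM). Of 3 tested Schwann and neuron markers 1 was lower, *Dbh* (sums 41.6 to 53.7 and 18.5 to 25.1 CPM).

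The difference of the genotype effect between the labelled sexes was tested as an interaction in edgeR. None of the 10 genes passed, where 0.290% of all genes did. At an unadjusted p under 0.05 there was 1, *Dll4*, with an interaction (female minus male) of -0.91 ± 0.34 on the log2 scale, an unadjusted p of 0.0194 and an adjusted p of 0.360; limma also gave 0 calls and 1 gene at that unadjusted level. With the sex labels of the controls exchanged, as *Xist* and *Ddx3y* have them, the interaction of *Dll4* was 0.04, and *Notch4* had 0.76 ± 0.21 with an unadjusted p of 0.00319 and an adjusted p of 0.289.

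The genes whose levels most resembled each of the 10 were found from log2 CPM centred within the labelled groups over the 10 libraries, by Pearson's r among 10950 other genes with a mean of at least 5 CPM. These are descriptions over few libraries that share depth and scaling. For *Dll1* they were *Mkln1* (r = 0.969), *Morc3* (0.962) and *Slc25a46* (0.952), for *Jag1* *Syngr1* (0.945), *Map1lc3b* (0.938) and *Mir5109* (0.938), and for *Jag2* *Rint1* (0.939), *Ap4e1* (0.932) and *Usp30* (0.924). *Dll4* was most like *Slc28a2* (0.976) and *Gnas* (0.904). *Notch1* was most like *Slc44a2* (0.933), *Ptpn14* (0.932) and *Adck2* (0.925), *Notch2* like *Tmem63a* (0.980), *Pcnxl3* (0.950) and *Fdxr* (0.947), *Notch3* like *Hivep1* (0.961), *Mfsd10* (0.923) and 2310047B19Rik (0.916), and *Notch4* like *Phyhd1* (0.955), *Ube3b* (0.948) and *Wfikkn2* (0.943). *Rbpj* was most like *Mmgt2* (0.947), *Kdm6b* (0.928) and *Cdc73* (0.924), and *Hes1* like *Mlst8* (0.852), *Ybx1* (0.831) and 1110059G10Rik (0.828). No member of the 10 was among the 3 nearest genes of another, and the r between *Jag1* and *Jag2* was -0.63.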

How the data were processed

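Right atrial RNA was sequenced from 10 mice. The submitters' processing notes name FastQC, the aligner TopHat2 2.0.11, the counter featureCounts, DESeq2 and the build mm10; their settings are not given in the sources used here, and the labels name both an mRNA kit and ribosomal depletion. The deposited table holds raw counts per gene and the authors' normalized signal, counts divided by a size factor. Its columns of the authors' own comparison (mean, fold changes, standard error, statistic and p-values) were not used. The study's methods describe left atria, so their steps are stated for these libraries only as far as the labels give them.

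Counts were tested with edgeR 4.0.16 in R 4.3.3: expression filter, TMM scaling, prior count 0.125, a quasi-likelihood fit of all 10 libraries with the labelled group as its only term, Benjamini-Hochberg adjustment over all 13084 genes tested. The signal was used only for the study's threshold of a control mean over 1. The SE is the size of the log2 fold change divided by the root of the F statistic. Single levels are TMM-scaled CPM, with an exact permutation test (two-sided) of log2(CPM + 1). Alternatives used limma 3.58.1, DESeq2 1.42.0 and lowess removal of length or GC trends (span 0.4); the fits were tested on simulated data. Totals of 5703775 to 7095141 counts make 3 counts, the floor, 0.423 to 0.526 CPM; this covers counting error only, as reads carry no molecular identifiers. Libraries of 1 group differed beyond sampling noise. The p-values set the difference between the groups against the spread between these mice.

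Named were the 10 genes, the pathway genes that passed, those of each role list by count, range or example, and the 3 nearest genes of each of the 10; some of these are not reported here. The 10 genes and the lists were chosen with earlier results of these data known. The pathway genes *Eogt*, *Xxylt1* and *Rita1* and the marker *Adgre1* were matched by older symbols. Positions and lengths came from GENCODE M21 (GRCm38), promoters from RefSeq (GRCm38.p6).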

Additional observations from a re-analysis of the deposited data

Results flagged for a closer look

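Among the 10 genes and the 14 pathway genes that passed, 4 of 48 groups of libraries held a value far from the others by Dixon's test, which chance gives in about 1 of 20 groups. *Notch3* was at 59.4 CPM (446 reads) in Tbx5 mutant F2, where the next highest of its group was 42.4 CPM. *Hes1* was at 33.4 CPM (195 reads) in Tbx5 mutant M1, with the next at 25.5 CPM. *Egfl7* was at 133.8 CPM (809 reads) in control M2, with the next at 116.7 CPM. *Spen* was at 42.5 CPM (271 reads) in control F1, below the next lowest at 56.7 CPM. No interaction of genotype and labelled sex passed for the 10 genes.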

How the results depend on the processing

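Over 24 named genes, 598 repeats of a log2 fold change under an alternative kept direction and side of the threshold 500 times; 85 lost the call, 2 gained one and 11 turned. The turns were *Notch1* (0.18), *Notch2* (0.12) and *Notch4* (0.03) with the length trend removed; 0.04, 0.04 and 0.05 for the same genes with a replicate block added; *Notch4* (0.0015) and *Dll4* (0.04) without control F2, with ranges of -0.20 to 0.0015 and -0.29 to 0.04 over single libraries left out; *Notch3* (-0.02) and *Dll4* (0.35) in labelled males; and *Maml2* (0.10) in labelled females. *Rbpj* and *Hes1* kept direction throughout, and the pseudocounts changed no call of a level. The cause of these changes was not tested.

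Of all genes, 1581 passed in labelled males, 2639 in labelled females, 2049 with a fold over 1.5 and control signal over 1, and 2198 at an adjusted p under 0.01. Leaving out 1 library gave 3192 to 4336. Of the 10 genes, 1 passed with a replicate block (0 higher, 1 lower), 0 in labelled males, and 1 at the stricter p (0 higher, 1 lower). The count higher was 0 in labelled females and with the fold, 2 with the length trend removed (also with the block, where 1 was lower), and 0 to 1 with a library left out. The count lower was 1 with a mean count of at least 50, which leaves *Dll1* untested, and 1 to 2 with a library left out, 2 to 3 passing in all.

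Of the other pathway genes, 9 passed with the replicate block (4 lower), also with the length trend removed (4 lower); 6 with that trend removed alone (1 lower); 8 in labelled males (3 higher); 7 in labelled females (1 lower); 5 with the fold (3 higher, 2 lower); and 5 at the stricter p (4 higher, 1 lower). Leaving out 1 library gave 7 to 17 (4 to 7 higher, 1 to 10 lower). The block for the number that pairs 4 mice of each group left 3407 of all genes and took the calls of *Jag1* (0.22, adjusted p 0.151) and *Jag2* (-0.44, adjusted p 0.0613); Tbx5 mutant F3 and M3 add nothing to it, and same-numbered mice, which share only a number, did not deviate together (correlations -0.023 to 0.049 over 4 pairs).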
